A study of Mus musculus with 8 samples.

Results

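At 1057 sites, a peak of the histone mark H3K27ac was found in both control and C28-treated cells and was at most 50% as wide after C28. These 1057 narrowed peaks are taken from 23585 control peaks. A member is a control peak on chromosomes 1 to 19 or X, at least 800 and under 2000 bp wide, that overlaps by 1 bp or more exactly 1 C28 peak, where that C28 peak overlaps no other control peak and has at most 50% of its width. The members were chosen by the widths in these lists, so their loss of width is a description and supports nothing. The cells were mouse cells of C57BL/6 background labelled female germline stem cells, a name for mitotic germ cells of the ovary kept in culture. One chromatin library came from cells labelled as the control group, whose peaks carry DMSO, the solvent, in their names, and 1 from cells labelled 028 treated, 028 standing for the compound that the series calls C28. Both were taken at 3 h. No source used here gives the dose, the number of cultures behind each library or the read depth of the chromatin libraries, and with 1 library in each group no difference between them has a replicate check.

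H3K27ac is the acetyl group on lysine 27 of histone H3. It is placed by the acetyltransferases p300 and CBP, removed by histone deacetylases, and marks active promoters and enhancers. The mark sits on the nucleosomes that flank the open stretch of DNA where transcription factors bind, so a peak can hold a shoulder on each side of that stretch, and its width says how far acetylated nucleosomes reach and how clearly they stand above background. A peak that keeps its place but becomes narrower has a shorter stretch called above the threshold at the same element. A narrower call is not read here as a loss of acetylation, since the read depth and the peak calling settings of the libraries are not known. In material from many cells, fewer cells with the mark and less mark in each cell cannot be told apart. Positions are in mm9, the build named in the submitters' processing notes. The genes and the DNA sequence at these positions were not analysed here.

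The labelled cell type was checked against the 6 RNA libraries of the same series, 3 with DMSO and 3 with C28. Each held 16930212 to 19197376 reads counted in genes. Of 8 germline genes, Pou5f1 and Dppa3 had 0 reads in all 6 libraries, and the germ cell RNA-binding genes Ddx4 and Dazl reached at most 1.91 and 0.952 normalized counts. The other 4 averaged at least 10: Zbtb16 lay between 7.19 and 74.8, Ifitm3, a membrane protein also made by many other cells, between 80.4 and 285, and Etv5, a transcription factor, between 1201 and 1856. The fourth, the receptor Kit, which germ cells share with several blood lineages, lay between 17500 and 24074. Ptprc, the leukocyte surface protein CD45, lay between 6568 and 8917. The summed germline list ranged from 23121 to 25639 normalized counts with DMSO and from 19400 to 24769 with C28, mostly Kit, and the 5 leukocyte genes from 10487 to 10714 and from 10644 to 11570. Of 4 ovarian somatic genes Foxl2 and Cyp19a1 were at 0 in all 6, while Cyp11a1, which opens steroid synthesis, lay between 5691 and 7728 and made up most of that list's sum. Of 4 fibroblast genes none was at 0, but Vim, between 24180 and 28712, made up most of that list's sum. Col1a1, Col1a2 and Pdgfrb lay between 32.7 and 277. At several of these genes replicate 1 differed from replicates 2 and 3 in both groups. Ifitm3 was 80.4 with DMSO and 89.2 with C28 in replicate 1, and 216 to 285 in the other libraries. Zbtb16 was 74.8 and 39.4 in replicate 1, and 7.19 to 18.1 in the others. The sample titles do not tie the chromatin libraries to any of these replicates. The germline genes Ddx4, Dazl, Pou5f1 and Dppa3 thus did not bear out the label. The other 4 germline genes averaged at least 10, as did all 5 leukocyte genes, all 4 fibroblast genes and 2 of the 4 ovarian somatic genes. That level does not tell these cell types apart, so no other identity is read from it. The part that cell type plays in the peak widths was not tested.

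The fate of all 12988 control peaks in this width range places the members. Of these peaks 10204 (78.6%) kept a single C28 partner of more than 50% of their width, 1057 (8.14%) narrowed, 1270 (9.78%) overlapped no C28 peak, 329 (2.53%) overlapped 2 or more C28 peaks, and 128 (0.986%) shared their C28 peak with another control peak. Narrowing to a single shorter peak was thus more frequent in these lists than breaking up into several, and about as frequent as absence from the C28 list. Only 21 of the 329 peaks that broke up had a summed C28 width of at most 50% of the control width. Among the 11261 pairs in which each peak met only the other, called one-to-one pairs here, the members were 9.39%, with an exact 95% binomial interval of 8.85% to 9.94% that covers counting error only.

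The width changed by a large stretch at most members. The control peaks of the members had a median width of 1244 bp (quartiles 1036 and 1495 bp), close to the 1226 bp of the 10204 pairs that stayed above 50%. Their C28 peaks had a median of 449 bp (quartiles 365 and 579 bp), against 1085 bp in those pairs. The members kept a median of 39.3% of their width (quartiles 32.5% and 44.8%), and the lowest value was 16.6%. The other pairs kept a median of 88.9% (quartiles 77.5% and 98.8%). In all, the members covered 1356 kb in control and 513 kb after C28. At 382 members (36.1%) the C28 peak was under 400 bp wide, against 3233 (14.9%) of all C28 peaks on these chromosomes. The rule itself favours short C28 peaks. Of the 382, 4 were at 287 bp, the smallest width in the C28 list, while the smallest in the control list was 318 bp. At 234 members the C28 peak was still 600 bp or wider.

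**Figure D1:**
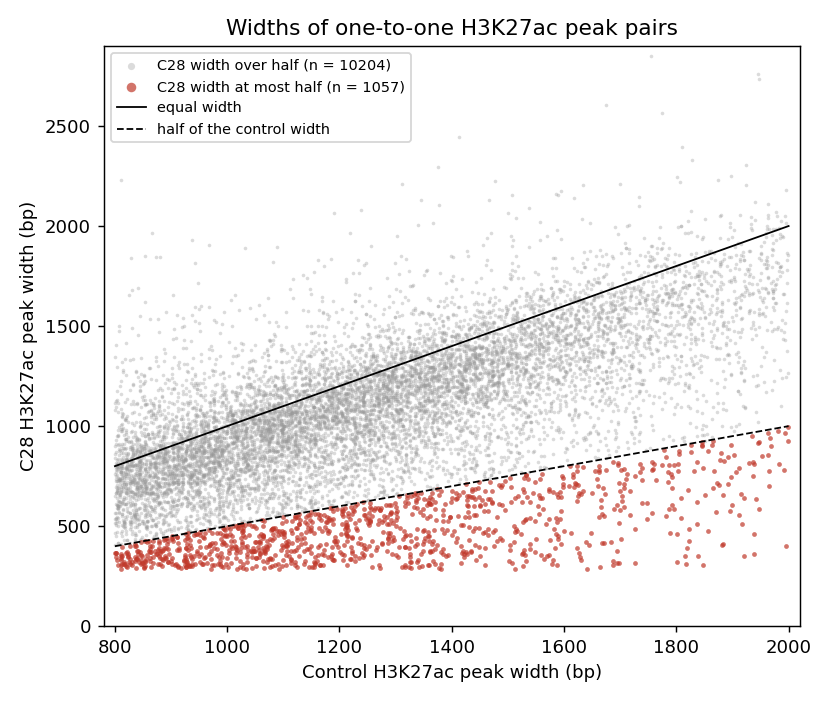
Width in bp of each C28 peak (vertical axis) against the width in bp of its control partner (horizontal axis) for 11261 one-to-one pairs, 1 point each. The 1057 members (red) lie at or under the dashed line of 50% of the control width by construction, and of the 10204 other pairs (grey) 3026 kept up to 0.8 of their width, 4879 more than 0.8 and up to 1, and 2299 lie above the solid line of equal width.

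No gap separated the members from the rest. Of the one-to-one pairs, 250 kept more than 45% and up to 50% of their width and 282 kept more than 50% and up to 55%. The members just inside the limit were chr1:37642438-37643499, which went from 1062 to 531 bp, chr7:63048956-63050261, from 1306 to 653 bp, and a peak on chromosome 18, from 1241 to 620 bp. Just outside were chrX:97689115-97690418, from 1304 to 653 bp, chr14:48013723-48015573, from 1851 to 927 bp, and chr11:119947509-119948615, from 1107 to 554 bp. The members are thus the lower tail of a continuous range of widths.

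The same rule was applied with the lists exchanged, to count peaks that were wide with C28 and narrow in control. This gave 243 of 9693 one-to-one pairs, 2.51%, with an exact 95% binomial interval of 2.205% to 2.84%. Narrowing in the direction of C28 was 3.74 times as frequent. The C28 list as a whole was shorter and narrower, with 21713 peaks of median width 801 bp on these chromosomes against 23519 of 932 bp, so that it covered 18.96 Mb against 23.6 Mb. Its median -log10 q, the peak caller's measure of confidence, was 15.3 against 18.8, while its median fold enrichment over background was 6.11 against 5.55. The median C28 to control width ratio of all 16907 one-to-one pairs was 0.888. With the C28 widths divided by that ratio, 775 of 11261 pairs (6.88%) narrowed and 344 of 9693 (3.55%) went the other way, so that the first share was 1.94 times the second. The same ratio served for all pairs, while the median ratio was 0.692 in the weakest decile of control -log10 q and 0.920 in the strongest. This scaling is therefore no test of read depth or of the general width difference. Their part in the number of members was not tested.

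**Figure D2:**
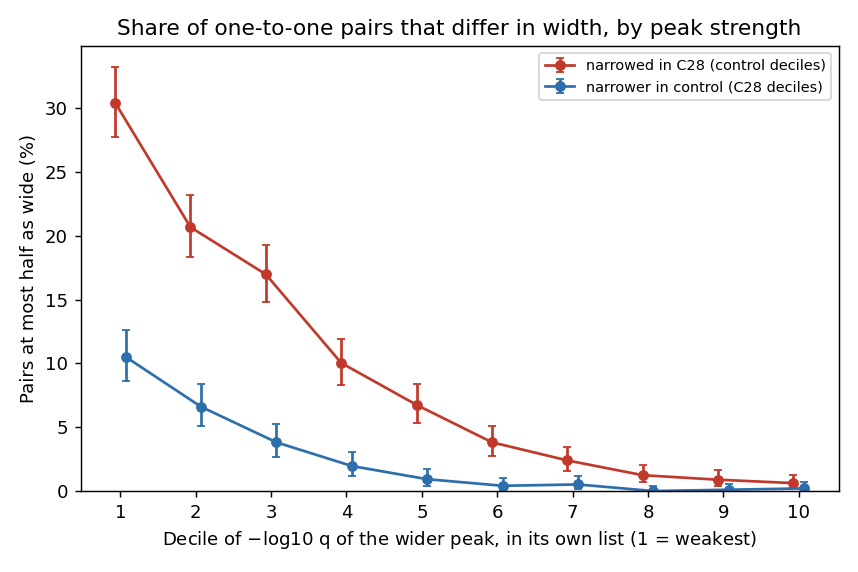
Percentage of one-to-one pairs in which the partner was at most 50% as wide (vertical axis), by decile of the -log10 q of the wider peak in its own list (horizontal axis). Red points are control peaks that narrowed with C28, blue points are C28 peaks that were narrow in control, and bars are exact 95% binomial intervals. The red share falls from 30.4% to 0.622% and the blue share from 10.5% to 0.206%.

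Members were weaker in control than the other one-to-one pairs. In the control list their median fold enrichment was 5.06 (quartiles 4.08 and 6.30), against 7.83 (quartiles 5.70 and 9.90) for the one-to-one pairs that stayed above 50%. Control peaks of the same width range with no C28 overlap were lower still, at 4.54 (quartiles 3.76 and 5.32). The median control -log10 q followed the same order, with 9.59 for peaks with no C28 overlap, 15.4 for the members and 44.2 for the pairs that stayed above 50%. The members therefore stood between absent and kept peaks in strength, with quartile ranges that overlap those of both. So did the 329 peaks that overlapped 2 or more C28 peaks, with a median enrichment of 5.46 and a median -log10 q of 23.8. The 128 that shared their C28 peak had 3.96 and 22.6, so enrichment and -log10 q did not order all fates alike. In the C28 list their partners had a median fold enrichment of 4.99 and a median -log10 q of 7.56, against 7.88 and 29.2 for the partners of the other pairs. These values are the authors' own for each peak, and groups of peaks are compared within a list. Where a control and a C28 value stand side by side, here and below, they are not corrected for read depth and no change is read from them.

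The share that narrowed fell steadily with the strength of the control peak. In the weakest decile of one-to-one control peaks by -log10 q, from 2.52 to 11.3, 343 of 1127 (30.4%) were members. In the fifth decile, 76 of 1126 (6.75%) were members, and in the strongest, from 109 upward, 7 of 1126 (0.622%). The exchanged rule also fell with strength, from 102 of 970 (10.5%) to 2 of 970 (0.206%) when C28 peaks were ranked in their own list. Among wider peaks with a -log10 q under 15, 511 of 1856 (27.5%) narrowed with C28 and 175 of 2140 (8.18%) went the other way. The order of both directions was thus the same in weak peaks as in all peaks.

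Members that lost more of their width were also weaker. The 189 members left with up to 0.3 of their width had a median control enrichment of 4.47, the 370 left with more than 0.3 and up to 0.4 had 4.94, and the 498 left with more than 0.4 had 5.39. The pairs just above the limit, which kept 0.5 to 0.6 of their width, continued the series at 6.05. The share varied less with control width. Members made up 217 of 2640 pairs (8.22%) between 800 and 1000 bp and 81 of 627 (12.9%) between 1800 and 2000 bp, and between 9.28% and 9.65% in each class of 200 bp from 1000 to 1800 bp.

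The C28 peak lay inside the control peak in 845 of 1057 members (79.9%), and its summit, the point of highest signal, lay inside in 1026 (97.1%). Both shares are largely set by the rule, which asks for an overlap with a much narrower peak. In the exchanged set the narrow peak lay inside the wide one in 166 of 243 (68.3%) and its summit in 227 (93.4%). The control summit fell inside the shorter C28 peak in 753 members (71.2%, exact 95% binomial interval 68.4% to 74.0%). In the pairs that stayed above 50% the control summit was inside the C28 peak in 10035 of 10204 (98.3%). A shorter peak has less room for any point, so these shares are not on equal terms. In the exchanged set the summit of the wide peak lay inside the narrow one in 152 of 243 (62.6%). The median distance between the control and C28 summits was 114 bp (quartiles 45 and 296 bp) in the members and 61 bp (quartiles 25 and 147 bp) in the pairs that stayed above 50%.

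Where width was lost, it was mostly from one side. Split by end, the members lost a median of 631 bp at the end that lost more and 127 bp at the other. At 703 members (66.5%) only 1 end lost 200 bp or more, 364 times the end with the lower coordinate and 339 times the other, so neither side of the reference strand was favoured by much. At the other 354 (33.5%) both ends did. Part of this split is set by the rule, whose least loss of width means that at least 1 end lost 200 bp or more. By another measure, 80% of the lost width lay at 1 end in 594 members (56.2%) and in 153 of the exchanged set (63.0%). In the exchanged set, 178 of 243 (73.3%) lost 200 bp or more at only 1 end, so one-sided loss was the more frequent form there too.

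**Figure D3:**
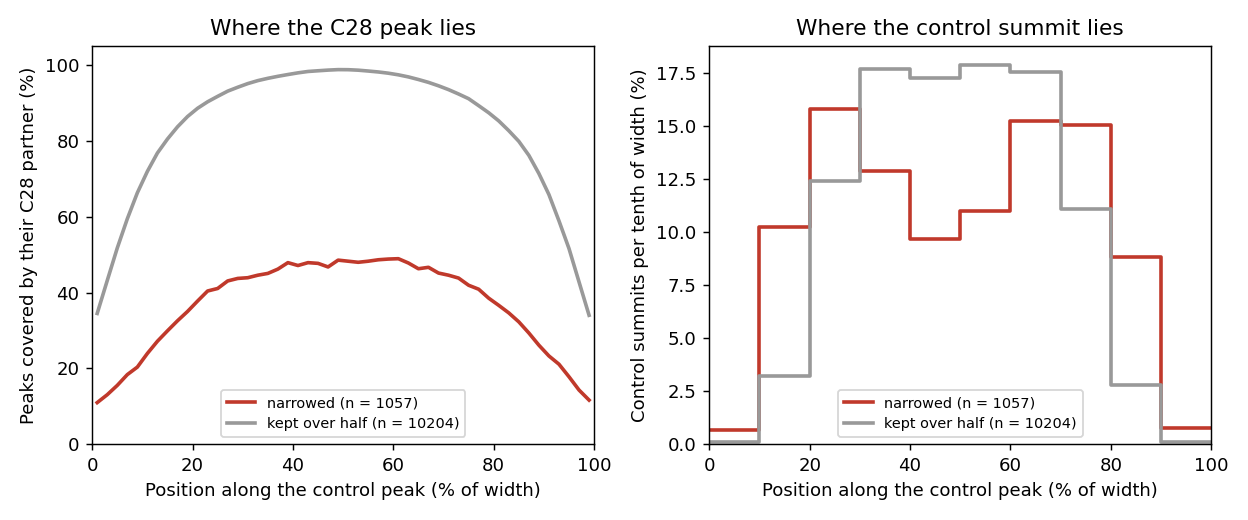
Left, percentage of control peaks whose C28 partner covers each point (vertical axis) along the control peak in percent of its width (horizontal axis). Right, percentage of control summits in each of 10 equal parts of the control peak's width. Around the middle, 48.4% of the members (red) and 98.7% of the other pairs (grey) were covered, and the members' summits are most frequent on both flanks with a dip at the centre.

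In the control list, without C28, the summits of members lay off centre more often than those of the other pairs. The control summit lay outside the central 33.3% of the width in 653 members (61.8%), against 4198 of the 10204 pairs that stayed above 50% (41.1%). Over 10 equal parts of the width, the summits of the members were most frequent in the third (15.8%) and again in the seventh (15.2%), and less so in the fifth (9.65%), which gives a distribution with a peak on each flank. The other pairs had 17.2% in the fifth and a flat centre. In both groups summits were off centre more often among weaker peaks, and most of the other pairs were among the stronger ones. Among peaks under the members' median -log10 q, the summit was off centre in 367 of 528 members (69.5%) and in 886 of 1421 other pairs (62.4%), and at or above it in 286 of 529 (54.1%) and in 3312 of 8783 (37.7%).

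In 304 members the C28 peak did not hold the control summit, so the part that was highest in control was no longer called. The median distance between the summits was 532 bp (quartiles 349 and 690 bp), against 69 bp (quartiles 28 and 128 bp) in the 753 members that kept it. The 304 were weaker, with a median control enrichment of 4.48 against 5.39, and narrower after C28, at 388 against 478 bp. The longest shift was at chr10:20710612-20712413, a control peak of 1802 bp and enrichment 2.43, where the 462 bp C28 peak had its summit 1569 bp from the control summit. At chr6:29337759-29339675 the summits were 1400 bp apart and the C28 peak passed the lower end of the control peak by 60 bp. At chr5:64771800-64773711 they were 1338 bp apart. All 3 were pairs whose shared place rests on the opposite end of the control peak from its summit.

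The control summit was kept more often at stronger peaks. Under the members' median -log10 q it was kept in 57.4% of 528 members, and at or above that median in 85.1% of 529. In the other pairs these shares were 90.6% and 99.6%. All 11 members with a control -log10 q of 100 or more kept the control summit, with the summits at most 73 bp apart, and kept between 42.9% and 49.8% of their width. The first was chr11:3022949-3024416, where a control peak of 1468 bp lost 746 bp at its lower end and 1 bp at the other. Its C28 peak was 721 bp wide with its summit 13 bp away. Its -log10 q was 653 in control and 759 with C28, at fold enrichments of 13.1 and 16.7. It stands apart from the other members: 819 control peaks with an enrichment of 12 to 14 had a median -log10 q of 89.1, and this peak had the highest value of them. The second, chr5:23217069-23218480, lost 747 bp at its lower end and 9 bp at the other, going from 1412 to 656 bp with the summits 4 bp apart. Its enrichment was 14.5 in control and 11.5 with C28, and its -log10 q 271 and 81.7.

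The next 3 strongest had the same build or lost both ends. At chr17:56812021-56813683 the peak went from 1663 to 800 bp with 712 bp lost at the lower end, 151 bp at the other, and summits 7 bp apart. At chr4:33334067-33335825 it went from 1759 to 787 bp, and its -log10 q was 146 in control and 214 with C28, at enrichments of 11.1 and 14.2. At chr14:62266298-62268296, a peak at the upper limit of the width range, 401 and 603 bp were lost at the ends and 995 bp remained. These 3 peaks kept their summit like the first 2, whichever end was lost. The next were chr16:32608622-32609969, from 1348 to 587 bp with 462 and 299 bp lost at the ends, and chr14:19102257-19104119, from 1863 to 907 bp with 333 and 623 bp lost. The eighth, chr12:73185754-73187556, went from 1803 to 774 bp with 947 bp lost at the lower end and 82 bp at the other, and summits 20 bp apart.

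**Figure D4:**
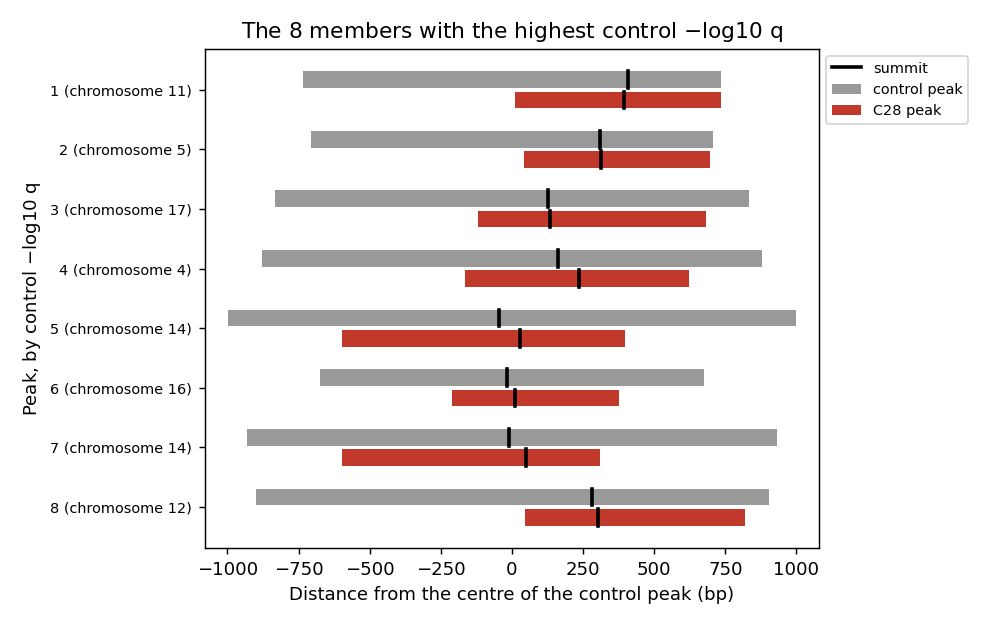
The 8 members with the highest control -log10 q, each drawn as its control peak (grey) above its C28 peak (red), in bp from the centre of the control peak, with a black mark at each summit. The summits of each pair lie 4 to 73 bp apart, while up to 947 bp is missing at 1 end.

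The 8 members with the lowest width ratio varied in strength, with control enrichments from 2.64 to 8.18, and 5 of them lay under the members' median control -log10 q. They were all wide in control, which the rule fixes, since no C28 peak was under 287 bp. These 8 kept 16.6% to 18.2% of their width, going from between 1641 and 1920 bp to between 288 and 349 bp. At 6 of the 8 the control summit lay outside the C28 peak. The lowest was chr16:10584642-10586489, from 1848 to 307 bp with the summits 664 bp apart, a control enrichment of 3.71 and a C28 enrichment of 4.01. Another on the same chromosome, chr16:10724188-10725989, went from 1802 to 320 bp with enrichments of 2.64 and 3.14. The strongest of the 8 was chr1:13502941-13504758, from 1818 to 312 bp, whose summits were 14 bp apart and whose enrichment was 8.18 in control and 5.60 with C28. Its -log10 q was 53.5 in control and 7.29 with C28. At chr15:38751072-38752991 the C28 peak of 349 bp was the last part of a 1920 bp control peak, 1531 bp being lost at the lower end and 40 bp at the other.

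Members were spread over the genome. Their share of the one-to-one pairs lay between 6.80% on chromosome 2 (60 of 882) and 11.1% on chromosome 1 (79 of 709). On 19 of 20 chromosomes the exact 95% binomial interval held the share over all of them, the exception being chromosome 2, and on all 20 the share was above that of the exchanged rule. On chromosome X it was 10.1% (27 of 268). Another member lay within 10 kb of 41 members (3.88%) and within 100 kb of 265 (25.1%). The same counts were not made over all pairs, so neither clustering nor spacing of the members is read from them.

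Of the 697 windows of 1 Mb with a member, 457 held a single one and 240 held 2 or more. No matching count over all pairs was made here either. The most was 6, in 3 windows, of which the first 2 in chromosome order are described. Between 149 and 150 Mb of chromosome 4, 6 of 21 one-to-one pairs were members. They kept 25.8% to 47.4% of their width and 5 of the 6 lost the control summit, while the other 15 pairs there kept between 52.5% and 120% (median 80.5%). The members there were the weaker peaks, with a median control -log10 q of 8.03 against 32.4. Close together lay chr4:149362708-149363852, from 1145 to 295 bp, and chr4:149375200-149376689, from 1490 to 706 bp. Between 139 and 140 Mb of chromosome 5, 6 of 13 were members. They kept 22.3% to 46.6% of their width and the other 7 kept 75.7% to 121%. The members here were also weaker at the median, with a control -log10 q of 27.9 against 47.8 in the other pairs. Their values ranged from 7.17 to 72.0. Among the stronger, chr5:139935664-139936868 went from 1205 to 561 bp, with enrichments of 9.74 and 5.30 and a -log10 q of 72.0 and 6.16. At chr5:139819840-139821278 the peak went from 1439 to 556 bp, with enrichments of 8.69 and 9.49. The pair chr5:139853596-139855534 and chr5:139856661-139857998 lay about 1 kb apart, and both lost their upper end, by 1462 and 1000 bp.

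The control peaks next to members kept about as much of their width after C28 as those next to the other pairs. The nearest other control peak lay within 10 kb of 470 members (44.5%) and of 3657 other pairs (35.8%). Where that neighbour had a one-to-one C28 partner, its width ratio had a median of 0.898 (quartiles 0.664 and 1.05, 322 neighbours) next to members and 0.880 (quartiles 0.722 and 1.02, 2605 neighbours) next to pairs that stayed above 50%. The neighbour itself was at or under 0.5 in 31 of 322 (9.63%) and in 231 of 2605 (8.87%). It had no C28 overlap in 134 of 470 (28.5%) and in 944 of 3657 (25.8%). Among peaks under the members' median -log10 q the neighbour was at or under 0.5 in 11.9% of 160 next to members and in 13.2% of 416 next to other pairs. Both groups of neighbours thus had close shares of narrowed peaks in these lists. Neighbours share libraries and regions, so these are descriptions with no test.

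**Figure D5:**
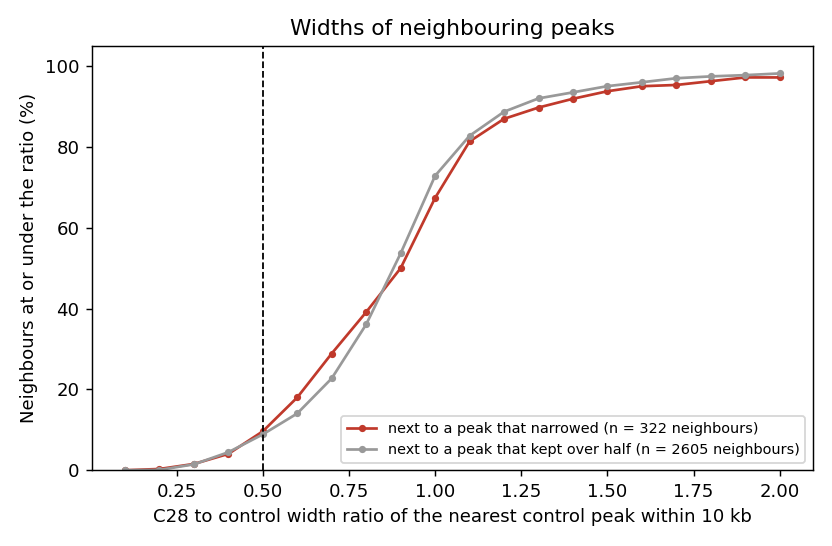
Cumulative percentage (vertical axis) of nearest control peaks within 10 kb by their own C28 to control width ratio (horizontal axis), for neighbours of members (red, 322) and of the other pairs (grey, 2605). At the dashed line, a ratio of 0.5, the curves stand at 9.63% and 8.87%.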

How the data were processed

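H3K27ac was measured in 2 chromatin libraries, 1 control and 1 C28, and groups came from the sample titles. The submitters' processing notes name mm9, Bowtie2 and Cufflinks 2.2.1 without their roles; the peak caller, its settings and any use of input DNA are not known, as no source used here gives them. The deposited peak lists, 1 per library, give each peak a score (10 times -log10 q, rounded down), a fold enrichment as a ratio, -log10 p and -log10 q, and a summit. In the deposited expression table the values are a signal, gene read counts that the authors divided by 1 size factor per library, as the values show, since dividing by what 1 read is worth gives whole numbers (to 0.01) for 100% of them. It was used for marker levels only, so no count test was run.

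Peaks were matched in Python 3.11.15 with pandas 2.3.3, and the matching was tested on simulated lists. Width is end minus start, and printed starts count from 1. Peaks on other sequences (66 control, 63 C28) were left out. Peaks on chromosome 1 reach past the last gene of GRCm38, the build of the gene table at hand, so no gene was assigned and the planned RNA comparison at the members was not run. Regions named were the 8 with the highest control -log10 q, the 8 with the lowest width ratio, 3 on each side of the limit, the 3 with the largest summit distance, and those of the 2 windows of 1 Mb with the most members, ties going by chromosome and start. From the last, a few are printed. The members and lists were chosen with earlier results of these data known. Exact binomial intervals (SciPy 1.17.1, 95%) cover counting error only. Alternatives changed the q threshold, the overlap, the width ratio, the joining of peaks, chromosome X and the scaling of widths.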

Additional observations from a re-analysis of the deposited data

How the results depend on the processing

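The count of 1057 members moved by over 1.5 times only with the width ratio itself, to 559 at 0.4 and 1655 at 0.6. With both lists at a -log10 q of at least 5 the narrowed share was 7.99%, the exchanged share 1.81%, the control summit was kept in 76.5% and the members' median control enrichment was 5.30. At a ratio of 0.4 these were 4.96%, 1.15%, 61.7% and 4.81, and at 0.6 they were 14.7%, 4.25%, 78.6% and 5.34. With peaks within 500 bp joined, the shares were 10.01% and 3.01%. With widths scaled by the median ratio, an alternative chosen after seeing the data, they were 6.88% and 3.55%, and the control summit was kept in 67.2%. Changes of the count and of the narrowed and exchanged shares with the ratio follow from its construction. For the other changes the cause was not tested. The other values moved by less than their counting interval or, for the count, by less than 1.5 times. In all 7 alternatives the narrowed share stayed above the exchanged one, by 1.94 to 4.41 times, and members had a lower median control enrichment than the other pairs. No paired analysis was possible because each chromatin group holds 1 library and no result comes from a test. The RNA at the members was not fitted under any setting (replicate block, a replicate left out, another pseudocount or filter), since no gene was assigned. Each value rests on 1 library per group of unknown depth.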
